A study of Mus musculus with 6 samples.

Results

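The GIMAP genes of naive CD8 T cells were examined, a family of small GTPases named for immunity-associated proteins. The members were the 8 genes Gimap1, Gimap3, Gimap4, Gimap5, Gimap6, Gimap7, Gimap8 and Gimap9, found by symbol among 11162 listed genes, and all 8 were listed. RNA had been measured in CD8 T cells from mouse spleen, sorted as naive cells (CD44lo, CD62Lhi and Qa2hi) and then by a fluorescent reporter into 3 GFP-hi and 3 GFP-lo libraries. Both populations carried the Nur77-GFP transgene Tg(Nr4a1-EGFP)GY139Gsat, which makes green fluorescent protein under the control of Nr4a1, a gene that T-cell receptor signalling switches on. The sort markers of both also name OT-I, a transgenic T-cell receptor. The populations therefore differed by the labels only in reporter brightness, and the age of the mice was not given in the sources used here. Nothing in the labels states that the libraries came from separate mice, so p-values below measure the spread between these samples, which may be technical.

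GIMAP proteins bind GTP through a domain shared by the whole family and many of them sit on intracellular membranes. They are made mainly in lymphocytes. Loss of Gimap5 leaves rodents short of T cells, and Gimap1 is needed to keep mature T and B cells. The proteins have been tied to the Bcl-2 family of survival and death regulators, to autophagy and to the entry of calcium, and genes of these pathways are described beside them.

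The 8 genes formed 1 block on chromosome 6, from 48647186 to 48770851 in mm10, with no other gene of the family listed in the table. In RefSeq (GRCm38.p6, the assembly called mm10) all 8 matched by symbol. Their order was Gimap8, Gimap9, Gimap4, Gimap6, Gimap7, Gimap1, Gimap5 and Gimap3, with Gimap6 and Gimap3 on the minus strand and the other 6 on the plus strand. The first 6 genes along the block were Gimap8 (chr6:48647186-48660875, Entrez 243374), Gimap9 (chr6:48676121-48679116, Entrez 317758), Gimap4 (chr6:48684578-48692062, Entrez 107526), Gimap6 (chr6:48701583-48708244, Entrez 231931), Gimap7 (chr6:48718621-48724636, Entrez 231932) and Gimap1 (chr6:48739047-48743795, Entrez 16205). At its far end, Gimap5 (chr6:48746197-48754200, Entrez 317757) and Gimap3 (chr6:48764464-48770851, Entrez 83408) were close copies. Over 899 aligned coding bases of GENCODE M21, 88.9% were identical. The longest run without a difference covered coding bases 187 to 326 of Gimap5 and 175 to 314 of Gimap3, and it is shown because reads from it fit both genes.
Shared coding run of Gimap5 and Gimap3: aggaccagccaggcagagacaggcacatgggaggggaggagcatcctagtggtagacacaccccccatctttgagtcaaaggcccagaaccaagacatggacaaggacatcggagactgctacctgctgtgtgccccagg
Of all windows of 50 bases in their transcripts, 9.98% of those of Gimap5 and 7.52% of those of Gimap3 occurred in the other gene. No window of that length was shared by any other pair of members, and the longest coding run in the other 27 pairs was 17 bases. The values of Gimap3 and Gimap5 are therefore uncertain, since the authors' treatment of reads that fit both genes was not stated. These shares do not bound the error. With windows of 30 bases they were 17.9% for Gimap5 and 13.5% for Gimap3. The levels also differ (338 RPKM for Gimap3 and 56.8 RPKM for Gimap5), so reads of Gimap3 counted for Gimap5 would weigh more there. Gimap1 overlaps the antisense gene Gimap1os (chr6:48738346-48741444), and no step that marks strand was named, so reads from the pair cannot be told apart. A joint transcript named Gm28053 spans Gimap7, Gimap1 and Gimap5, and neither it nor Gimap1os was listed.

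The promoters of 4 members are shown, as the 250 bases before the RefSeq start. Gimap7 and Gimap3 were chosen because the populations did not overlap in their levels, and Gimap1 and Gimap5 because their levels varied together across libraries. Capitals mark matches on either strand to the letters AGGAAG (an ETS core), TGTGGT (a RUNX core), TGTTTAC (a FOX site) or AAAGGTCA (NBRE, the site to which Nur77 binds as a monomer).
Gimap7 (chr6:48718371-48718620, plus strand): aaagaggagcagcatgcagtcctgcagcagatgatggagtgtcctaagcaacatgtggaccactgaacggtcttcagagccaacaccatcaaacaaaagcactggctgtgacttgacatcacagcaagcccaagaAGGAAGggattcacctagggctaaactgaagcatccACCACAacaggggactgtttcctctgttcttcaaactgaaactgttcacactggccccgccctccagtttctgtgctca
Gimap3 (chr6:48770852-48771101, minus strand): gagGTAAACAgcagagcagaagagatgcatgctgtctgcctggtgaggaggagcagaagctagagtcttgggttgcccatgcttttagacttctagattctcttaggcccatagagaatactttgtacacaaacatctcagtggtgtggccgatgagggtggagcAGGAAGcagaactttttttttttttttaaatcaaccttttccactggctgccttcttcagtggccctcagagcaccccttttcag
Gimap1 (chr6:48738797-48739046, plus strand): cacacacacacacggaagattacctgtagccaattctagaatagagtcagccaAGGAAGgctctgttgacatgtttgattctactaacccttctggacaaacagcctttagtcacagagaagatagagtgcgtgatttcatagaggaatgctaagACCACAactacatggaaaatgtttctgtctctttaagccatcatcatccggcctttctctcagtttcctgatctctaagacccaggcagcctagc
Gimap5 (chr6:48745947-48746196, plus strand): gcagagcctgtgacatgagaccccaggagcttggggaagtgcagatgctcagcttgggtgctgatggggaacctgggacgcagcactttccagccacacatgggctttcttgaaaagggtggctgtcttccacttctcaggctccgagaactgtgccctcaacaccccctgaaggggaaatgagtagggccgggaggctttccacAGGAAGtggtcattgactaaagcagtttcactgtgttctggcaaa
The ETS letters were present in 6 of 8 Gimap promoters and in 29.5% of 32851 windows of the same length before the starts in the table. The RUNX letters were present before Gimap4, Gimap7 and Gimap1, and in 14.0% of all windows. The FOX letters were present before Gimap3 and in 3.17% of windows. The NBRE letters were present before 0 of 8 members and in 1.34% of windows. These counts describe letters in these windows and say nothing of the factors.

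All 8 genes were measured with many reads. Values are the RPKM deposited by the authors, that is reads scaled by the length of the gene and by the depth of the library. Library depth, recovered from the step that a single read makes in low values, ran from 26170000 to 35940000 reads. The lowest member, Gimap8, thus rested on at least 774 reads per kilobase in every library, which gives a counting error of at most 3.59% for 1 kilobase. Such reads include PCR copies, so this covers counting error only. RPKM is scaled by length, but the annotation that set the lengths was not given. Some reads of Gimap3, Gimap5, Gimap1 and Gimap7 also cannot be assigned with certainty, so comparisons of level between genes are approximate. Gimap3 stood highest, with a mean level over 6 libraries of 338 RPKM, rank 24 of 9351 tested genes. Gimap6 (165 RPKM), Gimap4 (102 RPKM), Gimap9 (83.2 RPKM), Gimap1 (62.7 RPKM), Gimap5 (56.8 RPKM), Gimap7 (43.1 RPKM) and Gimap8 (27.2 RPKM) followed. This order held in 6 of 6 libraries for each pair of neighbours. The ranges over libraries overlapped only between Gimap1 and Gimap5 and between Gimap5 and Gimap7. Gimap3 exceeded Gimap8 by 11.2 to 14.9 times within a library.

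The question of the design was how GFP-hi cells differ from GFP-lo cells, and for the GIMAP genes no difference passed the test. With an unpaired limma fit on log2(RPKM + 1), 0 of 8 members had an adjusted p under 0.05, where 3.95% of the 9351 genes tested did (2.46% rose and 1.49% fell in GFP-hi). An unadjusted p under 0.05 was found for 1 of 8 members, where 20.2% of genes had one. In GFP-hi cells 4 members were nominally higher and 4 lower. The median log2 difference (GFP-hi minus GFP-lo) was 0.00039 over the members and 0.018 over all genes tested. The median absolute difference was 0.098 for members and 0.086 for all genes tested. In 2 of 8 members the populations did not overlap, as in 26.9% of all genes tested (17.1% with GFP-hi above and 9.84% with GFP-hi below). In bulk samples a change in the share of cells that make a transcript and a change in the RNA per cell cannot be told apart.

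**Figure D1:**
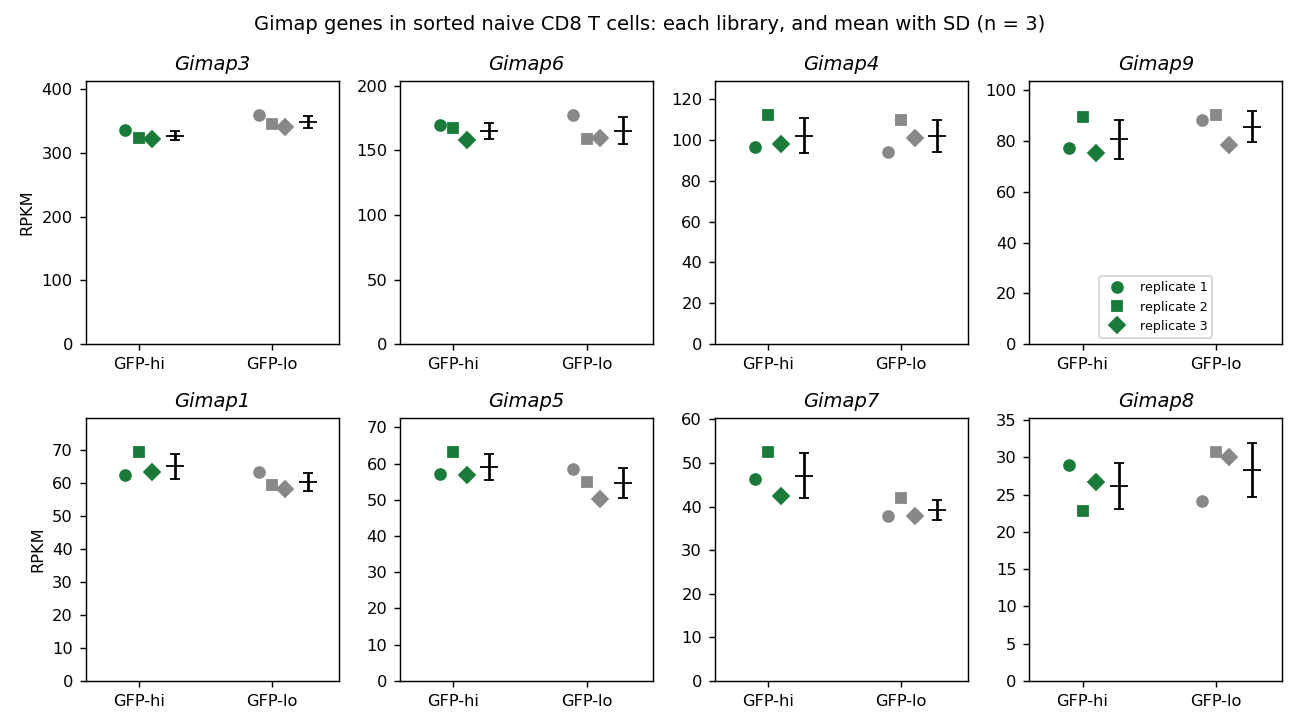
RPKM (vertical axes, from 0, a scale for each gene) of the 8 Gimap genes in each GFP-hi and GFP-lo library, with the mean and SD of 3 libraries beside the points. The points of the populations lie at like heights in each panel, with complete separation only for Gimap3 (GFP-hi lower) and Gimap7 (GFP-hi higher).

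The summed level of the family was 874, 900.4 and 842 RPKM in the GFP-hi libraries and 903, 892 and 857 RPKM in the GFP-lo libraries. The populations overlapped, with averages of 872 ± 29.1 for GFP-hi and 884 ± 24.3 RPKM for GFP-lo (SD, n = 3 each, exact two-sided permutation test, p = 0.6, the smallest possible being 0.1). The family made up 0.486% to 0.522% of the summed RPKM of a library.

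Gimap5 and its close copy Gimap3 had nominal differences of opposite sign, and neither passed the test. Gimap5, the member whose loss causes lymphopenia, had 57.2, 63.2 and 56.8 RPKM in GFP-hi libraries and 58.6, 55.0 and 50.3 RPKM in GFP-lo libraries. The ranges overlapped, since GFP-lo replicate 1 exceeded 2 of the 3 GFP-hi libraries. Its log2 difference was 0.11 (standard error 0.072, 95% interval -0.06 to 0.28, limma adjusted p = 0.45). Gimap3, a gene of rodents whose human counterpart is a pseudogene, had 336, 324 and 322 RPKM in GFP-hi libraries and 359, 345 and 341 RPKM in GFP-lo libraries. Every GFP-hi library lay below every GFP-lo library, by a small margin. GFP-hi libraries averaged 327 ± 7.38 RPKM and GFP-lo libraries 348 ± 9.78 RPKM (SD, n = 3 each), and the log2 difference was -0.09 (standard error 0.053, 95% interval -0.21 to 0.03, limma adjusted p = 0.40). Gimap3 also had the smallest spread within populations of the 8, lower than that of all but 5.68% of genes tested.

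Gimap1, needed for the upkeep of mature lymphocytes, had 62.4, 69.4 and 63.3 RPKM in GFP-hi libraries and 63.4, 59.4 and 58.3 RPKM in GFP-lo libraries. GFP-hi replicate 2 was the highest, and the remaining values lay within a few RPKM of each other. The log2 difference was 0.11 (standard error 0.062, limma adjusted p = 0.40). Gimap4, a member tied to the pace of T cell death, had 96.5, 112 and 97.9 RPKM in GFP-hi libraries and 94.2, 109.9 and 101 RPKM in GFP-lo libraries. The populations were alike in mean (102 ± 8.47 and 102 ± 7.88 RPKM, SD, n = 3 each), and replicate 2 was the highest in both. The log2 difference was 0.0043 with a 95% interval from -0.18 to 0.19. Gimap6, whose product binds the autophagy protein encoded by Gabarapl2, had 169.7, 167 and 158 RPKM in GFP-hi libraries and 177, 159 and 159.6 RPKM in GFP-lo libraries. Its means were equal to 3 digits at 165 RPKM, with a log2 difference of -0.0035 and a 95% interval from -0.15 to 0.14.

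Gimap7 was the member nearest to a difference. The protein forms dimers that stimulate GTP hydrolysis. It had 46.4, 52.5 and 42.4 RPKM in GFP-hi libraries and 37.8, 41.9 and 37.9 RPKM in GFP-lo libraries. Every GFP-hi library lay above every GFP-lo library, but the nearest pair, 42.4 and 41.9 RPKM, was almost level. GFP-hi libraries averaged 47.1 ± 5.13 RPKM and GFP-lo libraries 39.2 ± 2.36 RPKM (SD, n = 3 each), and the log2 difference was 0.26 (standard error 0.084, 95% interval 0.06 to 0.45, limma unadjusted p = 0.016, adjusted p = 0.14). By unadjusted p it ranked 1045 among the genes tested. The difference was 0.13 when libraries were weighted by quality, and 0.15 when only the 4 libraries with higher nasal receptor levels were used. With heat-shock and dissociation genes as a covariate it passed, at 0.32 (limma adjusted p = 0.024). That fit called 8.92% of all genes tested, against 3.95% in the main fit.

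Gimap8, a long member with several GTPase domains, had 28.9, 22.8 and 26.7 RPKM in GFP-hi libraries and 24.1, 30.7 and 30.1 RPKM in GFP-lo libraries. The lowest values belonged to 1 library of each population, and the ranges overlapped. Its log2 difference was -0.11 (standard error 0.11, 95% interval -0.37 to 0.15, limma adjusted p = 0.65). Gimap9 had 77.2, 89.4 and 75.5 RPKM in GFP-hi libraries and 88.5, 90.2 and 78.7 RPKM in GFP-lo libraries, again with overlap. Its log2 difference was -0.09 (standard error 0.083, limma adjusted p = 0.61).

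**Figure D2:**
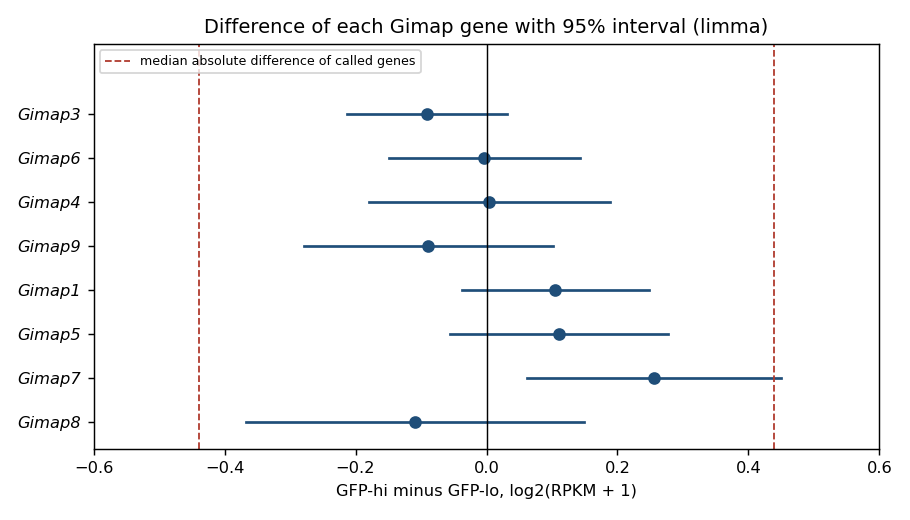
Difference of each Gimap gene (GFP-hi minus GFP-lo on the log2(RPKM + 1) scale, horizontal axis) with its 95% interval from limma, genes ordered by level. Dashed lines mark 0.44 in either direction, the median absolute difference of the 369 called genes, which only the interval of Gimap7 reaches.

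The intervals set the size of difference that these data leave room for. Over the 8 members they ran from -0.37 (Gimap8) to 0.45 (Gimap7) on the log2 scale, that is from 22.5% lower to 36.6% higher in RPKM + 1. For Gimap3 the interval ran from -13.7% to 2.25%, and for Gimap6 from -9.81% to 10.3%. Among the 369 genes that were called, the median absolute log2 difference was 0.44 and the smallest 0.23. Differences as small as that of Gimap7 were thus called in 4 genes.

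Ratios within a library remove differences in scale between libraries. The level of Gimap7 per Gimap3 was 0.138, 0.162 and 0.132 in GFP-hi and 0.105, 0.121 and 0.111 in GFP-lo libraries, so that the populations did not overlap. This ratio was chosen after the levels had been seen and is given as a description. Gimap3 per Gimap5 was 5.87, 5.13 and 5.67 in GFP-hi and 6.13, 6.28 and 6.77 in GFP-lo libraries. It too is only a description, since these genes had nominal differences of opposite sign and some reads fit both. Gimap1 per Gimap5 stayed between 1.08 and 1.16 in all 6 libraries.

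Members varied with each other to different degrees. The 6 libraries share the sort markers for naive cells and differ in depth. Across them the neighbours Gimap1 and Gimap5 had a Pearson r of 0.95 and a Spearman rho of 0.94 on the log2(RPKM + 1) scale. Both were the highest of 28 pairs. Gimap8, at the far end of the block, ran against both, with r = -0.90 for Gimap1 and r = -0.84 for Gimap5. No other pair had an r above 0.8 or below -0.8 over the levels, and 17 of 28 pairs had a positive r. With each population centred on its own mean, r was 0.92 for Gimap1 and Gimap5, and -0.95 and -0.83 for Gimap8 with Gimap1 and Gimap5. On that scale Gimap9 had an r of 0.90 with Gimap5, 0.83 with Gimap7 and 0.82 with Gimap1. Gimap6 and Gimap3 had an r of 0.90, and Gimap4 and Gimap7 of 0.85. These are descriptions over 6 libraries, where a high r is easily reached, and its share among other gene pairs was not counted. Gimap8 was lowest in GFP-hi replicate 2 (22.8 RPKM) and GFP-lo replicate 1 (24.1 RPKM). In each population the same library was the highest for Gimap1 and for Gimap5. Those 2 libraries were also the deepest (33950000 and 35940000 reads) and had the lowest levels of nasal (olfactory and vomeronasal) receptor genes, whose median over 41 listed genes was 0.037 and 0.038 RPKM there, against 0.263 to 0.583 RPKM in the other 4 libraries. The part of depth or of these genes in the pattern was not tested.

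**Figure D3:**
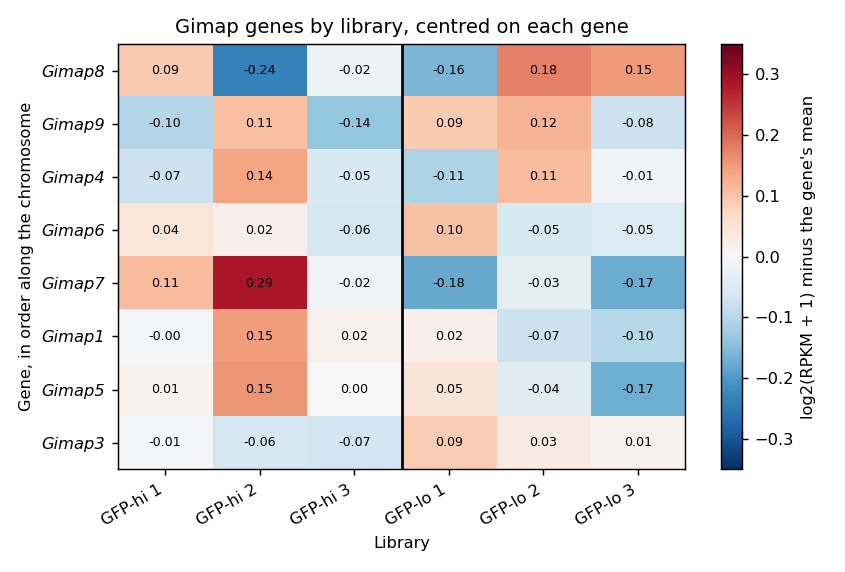
Level of each Gimap gene (rows, in chromosomal order) in each library (columns), as log2(RPKM + 1) minus the mean of that gene over the 6 libraries. GFP-hi replicate 2 is high for Gimap7, Gimap1 and Gimap5 and low for Gimap8, and no column or side of the black line between populations is of 1 colour throughout.

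The genes whose profile was most like the mean standardized profile of the 8 members over the 6 libraries were Gna15 (Pearson r = 0.996), Rab5a (0.990), Fbxo22 (0.989), Cfl2 (0.986) and Ifi27 (0.986). Of 9342 other genes compared, 1.43% had an r above 0.9. The members themselves had an r with that profile from -0.56 (Gimap8) and 0.1 (Gimap3) up to 0.82 (Gimap9). The mean profile thus did not stand for each member, and likeness to it is not likeness to each Gimap gene. That mean profile was highest in GFP-hi replicate 2 and lowest in GFP-lo replicate 3, with overlap between the populations. None of the 5 genes was called, with log2 differences from 0.01 to 0.05 and limma adjusted p values from 0.86 to 0.96. That follows from how they were picked. The mean profile differed little between populations, so a gene that tracks it closely differs little for its spread.

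Genes on either side of the block were compared with it. Of the 10 nearest listed genes, 5 on each side, 8 passed the filter and 2 were called, both lower in GFP-hi. Of all genes tested 3.95% were called, and 1.49% were called lower. With so few neighbours this count is a description. AI854703, a transcribed pseudogene 13.5 kb before Gimap8, had 0.654, 0.845 and 0.771 RPKM in GFP-hi libraries and 1.36, 1.31 and 1.34 RPKM in GFP-lo libraries. Its log2 difference was -0.41 (standard error 0.076, limma adjusted p = 0.025), at levels near the filter. The call was lost in 5 of the 6 fits that left out 1 library, all but that without GFP-hi replicate 2 (adjusted p from 0.069 to 0.11). Ccdc126, 548 kb beyond Gimap3, had 3.85, 4.04 and 3.78 against 6.07, 5.30 and 5.40 RPKM, a log2 difference of -0.43 (standard error 0.067, limma adjusted p = 0.014). Its call was lost without GFP-hi replicate 1 (adjusted p = 0.06) or 3 (0.057). Malsu1 (0.14, limma adjusted p = 0.37), Igf2bp3 (0.66, 0.066) and Tra2a (-0.18, 0.28), which lie between Gimap3 and Ccdc126, did not pass. Repin1 and Tmem176b were below the filter, with means of 0.521 and 0.477 RPKM.

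Pathways tied to GIMAP proteins were then read from the same fit. Of the survival members of the Bcl-2 family 4 of 7 were tested and none was called; the list median was 0.006. Bcl2 itself, which Gimap5 has been linked to, had 22.7, 23.7 and 20.7 RPKM in GFP-hi libraries and 24.9, 23.9 and 23.7 RPKM in GFP-lo libraries, a log2 difference of -0.11 (limma adjusted p = 0.40). Bcl2a1b was nearest, at 0.21 (limma adjusted p = 0.20); it belongs to a group of near-identical copies and its value is uncertain. Of the death members 6 of 11 were tested, and Bbc3 alone was called (list median 0.035). Bbc3, which encodes the death inducer Puma, had 14.2, 13.7 and 11.8 RPKM in GFP-hi libraries and 27.2, 20.6 and 17.4 RPKM in GFP-lo libraries. Every GFP-hi library was lower. By limma the log2 difference was -0.66 with a standard error of 0.15 and an adjusted p of 0.049. This lay at the threshold and was lost in 12 of 19 alternative fits, among them those without GFP-hi replicate 1 (adjusted p = 0.099), 2 (0.087) or 3 (0.14) and without GFP-lo replicate 1 (0.072) or 2 (0.13). Bcl2l11, which encodes Bim, had a log2 difference of 0.29 (limma adjusted p = 0.35), and Bax, a pore-forming death protein linked to Gimap4, of 0.05 (limma adjusted p = 0.67).

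All 12 genes of the Atg8 conjugation list, the enzymes and small proteins that build autophagosomes, were tested and none was called (list median 0.029). Gabarapl2, whose product binds Gimap6, had 26.0, 30.3 and 25.7 RPKM in GFP-hi libraries and 22.3, 26.0 and 23.1 RPKM in GFP-lo libraries, a log2 difference of 0.19 (limma adjusted p = 0.25). Gabarapl1, a close relative, had 3.46, 2.14 and 3.38 against 1.79, 1.76 and 1.61 RPKM. Its populations did not overlap, and its log2 difference of 0.53 missed the threshold (standard error 0.13, limma adjusted p = 0.070). It passed without GFP-hi replicate 2, at 0.70 (limma adjusted p = 0.0049).

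Of the 10 genes of GSK3 and mTORC1 signalling, linked to Gimap5 through the kinase encoded by Gsk3b, none was called (list median 0.035). Gsk3b had a log2 difference of 0.05 (limma adjusted p = 0.72). Ctnnb1, which encodes the GSK3 substrate beta-catenin, was nearest with 23.3, 23.9 and 24.1 RPKM in GFP-hi libraries and 21.5, 20.4 and 20.5 RPKM in GFP-lo libraries, a log2 difference of 0.18 (standard error 0.050, limma adjusted p = 0.090). Of 9 genes of calcium release and entry none was called either (list median -0.075). Orai2, a channel subunit of calcium entry, had 31.0, 31.5 and 30.8 against 37.9, 34.5 and 34.0 RPKM, a log2 difference of -0.18 (standard error 0.057, limma adjusted p = 0.13).

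**Figure D4:**
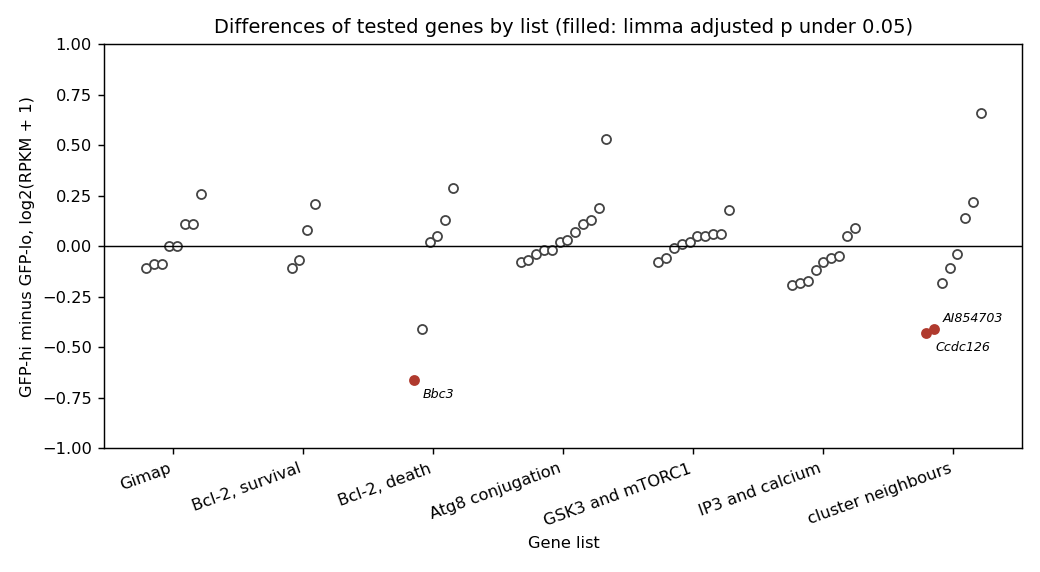
Log2 difference (GFP-hi minus GFP-lo, log2(RPKM + 1), vertical axis) of each tested gene of the Gimap family, of 5 pathway lists and of the listed neighbours of the block (horizontal axis), points spread sideways by rank. Filled points have a limma adjusted p under 0.05, and they are Bbc3, AI854703 and Ccdc126, all lower in GFP-hi.

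All 10 markers of naive CD8 T cells were measured and none was called, with a summed level of 2723 to 2921 RPKM in GFP-hi libraries and 2788 to 2998 RPKM in GFP-lo libraries. Nr4a1, whose promoter drives the reporter, did not pass the test, with 61.5 ± 27.3 and 60.6 ± 25.6 RPKM (SD, n = 3 each, limma adjusted p = 0.98). Of 8 B cell markers 3 were listed and the defining genes Cd79a and Pax5 were not. The B cell sum, nearly all from Cd79b, was 12.6 to 14.2 RPKM in GFP-hi and at most 11.4 RPKM in GFP-lo libraries. Cd79b was not called (log2 difference 0.26, limma adjusted p = 0.075), and Ms4a1 and Cd22 were below the filter. Endothelial cells also make GIMAP proteins. Of 8 endothelial markers 4 were listed, Cdh5 and Tek were not, and the sum was 29.3 to 31.1 against 28.1 to 32.6 RPKM, nearly all from Pecam1, which T cells make too. Of 8 NK markers 1 was listed, of 10 myeloid markers 3, of 9 erythroid and platelet markers 1 and of 6 CD4 T cell markers 2, and the sums were 5.49 to 8.14 and 5.86 to 7.68 RPKM for NK and 20.5 to 25.8 and 20.6 to 22.5 RPKM for myeloid genes. They were 0.047 to 1.94 and 0.393 to 1.48 RPKM for erythroid and platelet genes, and 17.2 to 26.2 and 36.2 to 47.8 RPKM for CD4 T cell genes, where Cd40lg was lower (-1.13, limma adjusted p = 0.011) and Izumo1r higher (1.17, 0.00087) in GFP-hi and the defining genes Cd4 and Zbtb7b were not listed. The part of other cells in the Gimap levels was not tested. The heat-shock and dissociation genes summed to 7874 RPKM in GFP-hi replicate 2 and 8818 RPKM in GFP-lo replicate 2, against 3624 to 4677 RPKM in the other libraries. Of the 22 tested genes of that list 1 was called, lower in GFP-hi, and the list median was -0.266. Gimap4, Gimap7 and Gimap9 were each highest in both replicate 2 libraries within their population. Gimap1, Gimap3, Gimap5, Gimap6 and Gimap8 were not highest in both. The share of all genes with this pattern was not counted, so it is a description. Without both replicate 2 libraries the log2 difference of Gimap7 was 0.22 (limma adjusted p = 0.20), that of Gimap9 -0.13 (limma adjusted p = 0.46) and that of Gimap4 -0.006.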

How the data were processed

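RNA was measured in 3 GFP-hi and 3 GFP-lo libraries, grouped by the reporter label. Per the labels' protocols, cDNA came from the SMART-seq v4 kit and was indexed with NexteraXT. Values were RPKM deposited by the authors, 1 column per sample per the file headers. STAR and mm10 are named in the submitters' processing notes. The read counter, annotation and gene filter were not given in the sources used here.

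The filter kept 9351 of 11162 genes, those averaging 1 RPKM or more across all libraries. Their log2(RPKM + 1) values were compared with limma 3.58.1 in R 4.3.3 (eBayes moderation that follows the mean level, 1 factor for population, two-sided). P-values were adjusted by Benjamini-Hochberg over all 9351 genes, and called means an adjusted p under 0.05. This scale understates differences of genes with low RPKM. Intervals are 95% intervals from limma. The fit was tested on simulated data.

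Depth was recovered from genes that GENCODE M21 gives only 1 transcript. Per library, 79.2% to 89.1% of low values lay within 0.1 of a whole read.

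The members and gene lists were chosen with earlier results of these data known. Named were all members, called genes of each pathway list (or else its lowest p), called neighbours and the 5 genes most like the mean member profile. Other genes were named after their values were seen. Sequences come from RefSeq (GRCm38.p6) and GENCODE M21.

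Alternatives changed the pseudocount (0.1 and 0.5), filter, scaling, variance model, covariate and samples. The fit on the 4 libraries with higher nasal receptor levels was chosen after seeing the data, as were all alternatives for neighbour and CD4 T cell genes.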

Additional observations from a re-analysis of the deposited data

How the results depend on the processing

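Of 8 Gimap genes, 0 were called in 18 of 19 alternative fits, and 1, Gimap7, with the heat-shock covariate. The median difference of the members ran from -0.0463 to 0.0298. Leaving out 1 library gave from -0.0156 to 0.0298 for this median, 0 called members and from 133 to 315 called genes. The main fit called 369, and how many of these were called again was not counted. Called genes numbered 202 with a mean RPKM of at least 5, 1282 with array quality weights, 834 with the heat-shock covariate and 101 without both replicate 2 libraries. With the stricter filter fewer genes were tested, and in the last fewer samples; otherwise the cause was not tested. The share of higher genes among those called was 62.3%, and 52.1% with trimmed mean of M values (203 higher, 187 lower), 51.5% without both replicate 2 libraries and 53.4% without GFP-lo replicate 2.

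Signs turned in 3 of 8 members, whose differences lay within their error. For Gimap4 the difference was -0.000377 with median centring, -0.0235 with trimmed mean of M values, -0.0825 with array quality weights, -0.00595 without both replicate 2 libraries and -0.116 in the 4 libraries with higher nasal receptor levels. Leaving out 1 library at a time gave Gimap4 from -0.0625 (GFP-hi replicate 2 left out) to 0.0608, and also turned its sign at -0.0495 (GFP-lo replicate 1 left out). For Gimap6 the range was -0.0297 to 0.0476 (GFP-lo replicate 1 left out), with 0.0272 when GFP-hi replicate 3 was left out, and 0.038 in the 4 libraries. Gimap8 was 0.0431 without both replicate 2 libraries. The cause was not tested. No paired analysis was made because replicate numbers only name the libraries, and no label ties a GFP-hi library to a GFP-lo library. Heat-shock genes were highest in replicate 2 of both populations, and whether libraries of 1 number share a mouse or a sort was not given in the sources used here. If they do, the unpaired fit leaves that pairing out and could miss small differences, which was not tested. With array quality weights Gabarapl1 (0.673), Ctnnb1 (0.209) and Orai2 (-0.164) were called too, in a fit that called 13.7% of all genes tested, against 3.95% in the main fit.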
